A study of Homo sapiens with 36 samples.

Results

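Late senescence after damage to the plasma membrane (PMD-Sen) was compared with late senescence driven by the DNA damage response (DDR-Sen) by small RNA sequencing of WI-38, normal fibroblasts of human lung that divide a limited number of times in culture. PMD-Sen cells were exposed to 0.0095% sodium dodecyl sulphate (SDS), a detergent that injures the cell membrane, for 24 h. DDR-Sen cells were exposed to 250 nM doxorubicin (DXR), a drug that poisons topoisomerase and breaks DNA, also for 24 h. Both were then washed and kept in plain medium, and the libraries used here were those of day 6 (D6), D8 and D16 after removal of the inducer. They were chosen by sample label alone, as 6 PMD-Sen and 6 DDR-Sen libraries, 12 of the 36 in the series, with 2 replicates for each inducer and day. Beside them stand 2 libraries of young proliferating cells (Ctrl) and 2 of replicative senescence (RS), reached by repeated division at a population doubling level of 54 to 56, and the 16 libraries of D1 to D4 served for a comparison of early with late days. All groups are WI-38 cells, and the labels describe the replicates as biological. Whether a replicate number at D6, D8 and D16 marks 1 culture sampled 3 times is not given, so the p-values measure the spread between these libraries.

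A miRNA is a short RNA cut from a hairpin transcript by the nucleases Drosha and Dicer and loaded into an Argonaute protein. There it pairs with mRNAs, mostly through its seed, the stretch of bases near its 5′ end, and lowers their translation and stability. Senescent cells have left the cell cycle for good through the p53-p21 and p16-Rb pathways and release inflammatory factors. Several miRNA families act on those steps: let-7 and miR-15/16 restrain cyclins and growth genes, the miR-17-92 cluster promotes proliferation, miR-34 is induced by p53, and miR-146 and miR-155 tune inflammatory signalling. The question was which miRNAs differ between cells that became senescent by the membrane route and those that did so by the DNA damage route.

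The mature sequences that the results turn on are given 5′ to 3′ from RefSeq, with the seed (bases 2 to 8) in capitals, and their positions refer to GRCh38.p14. The first set is shown because its members share a seed and differ in the same direction: 6 let-7 miRNAs, all higher in DDR-Sen.
let-7a-5p: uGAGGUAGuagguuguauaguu
let-7b-5p: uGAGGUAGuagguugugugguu
let-7c-5p: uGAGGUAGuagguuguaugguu
let-7d-5p: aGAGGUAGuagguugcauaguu
let-7e-5p: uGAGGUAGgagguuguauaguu
let-7f-5p: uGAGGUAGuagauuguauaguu
These come from several loci. let-7b-5p lies at chr22:46113691-46113712 (plus strand) in an exon of the lncRNA MIRLET7BHG, let-7d-5p at chr9:94178841-94178862 (plus strand) in an exon of the lncRNA MIRLET7A1HG and let-7e-5p at chr19:51692793-51692814 (plus strand) in an intron of SPACA6. let-7c-5p lies at chr21:16539838-16539859 (plus strand) in an exon of the lncRNA MIR99AHG. let-7a-5p has 3 identical gene copies, on chromosomes 9, 11 and 22, and let-7f-5p has 2, on chromosomes 9 and X, so their counts cannot be assigned to a locus. Reads of such near-identical family members could also be split between them by the counting.

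The next set is shown because its members were higher in PMD-Sen. miR-15b-5p and miR-16-5p share a seed and a locus.
miR-15b-5p: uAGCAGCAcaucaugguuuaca
miR-16-5p: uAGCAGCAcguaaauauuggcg
miR-31-5p: aGGCAAGAugcuggcauagcu
miR-379-5p: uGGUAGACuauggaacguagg
miR-143-3p: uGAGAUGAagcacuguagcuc
miR-145-5p: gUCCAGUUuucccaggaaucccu
miR-199a-5p: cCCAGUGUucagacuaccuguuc
miR-155-5p: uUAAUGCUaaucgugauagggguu
miR-15b-5p lies at chr3:160404607-160404628 (plus strand) in an intron of SMC4, and 1 of the 2 copies of miR-16-5p lies beside it at chr3:160404754-160404775, also in an intron of SMC4. The other miR-16-5p copy lies at chr13:50049027-50049048 (minus strand) in an intron of the lncRNA DLEU2. miR-143-3p (chr5:149428978-149428998) and miR-145-5p (chr5:149430661-149430683) lie on the plus strand within the lncRNA gene CARMN. miR-31-5p lies at chr9:21512158-21512178 (minus strand) in an intron of the lncRNA MIR31HG, miR-379-5p at chr14:101022071-101022091 (plus strand) in an intron of the lncRNA MEG8, and miR-155-5p at chr21:25573983-25574006 (plus strand) in an exon of its host lncRNA MIR155HG. miR-199a-5p has 2 copies, on chromosomes 1 and 19.

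Among the miRNAs higher in DDR-Sen outside the let-7 family, 3 are shown because their libraries separated by inducer or their difference was large, and miR-432-5p because its difference between inducers differed between early and late days.
miR-664a-3p: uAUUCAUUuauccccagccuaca
miR-30c-5p: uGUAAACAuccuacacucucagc
miR-574-5p: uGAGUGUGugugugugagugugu
miR-432-5p: uCUUGGAGuaggucauugggugg
miR-664a-3p lies at chr1:220200549-220200571 (minus strand), inside an intron of RAB3GAP2 and inside the small nucleolar RNA gene SNORA36B. miR-574-5p lies at chr4:38868056-38868078 (plus strand) in an intron of FAM114A1, and miR-432-5p at chr14:100884496-100884518 (plus strand) in an intron of the lncRNA MIR493HG. miR-30c-5p has 2 copies, in an intron of NFYC on chromosome 1 and in an exon of the lncRNA LINC00472 on chromosome 6.

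The PMD-Sen libraries held 325894 to 1933442 counts (median 459163) and the DDR-Sen libraries 323230 to 558758 (median 447690). PMD-Sen D16 replicate 1 stood apart as the deepest, 4.39 times its replicate. Replicates correlated at 0.981 to 0.986 on log2 CPM (counts scaled to a common library total), and a chi-square per degree of freedom of 7.69 to 56.1 showed spread beyond counting error in each of the 6 replicate pairs. A PMD-Sen library held 50.7% to 54.9% of its counts in its 10 leading miRNAs, and a DDR-Sen library 54.3% to 56.3%. CPM values below use totals scaled by the trimmed mean of M values (TMM), and 3 counts correspond to 1.54 to 10.2 CPM on that scale in these libraries. Of 10 fibroblast-enriched miRNAs in the table, 8 passed the filter on low counts, and the list summed to 15478 to 30386 CPM for PMD-Sen and 14328 to 17300 CPM for DDR-Sen. Of 7 blood markers in the table, miR-486-5p alone passed the filter, and the list summed to 218 to 454 CPM in PMD-Sen and 408 to 883 CPM in DDR-Sen. Epithelial, endothelial and liver markers each had 1 member that passed the filter, and muscle, neuron and pluripotent cell markers summed to at most 28.8 CPM in any of the 12 libraries. Bulk libraries cannot tell fewer cells with a miRNA from less of it per cell, and no batch is labelled, so inducer and any library batch cannot be told apart.

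Of 1508 miRNAs in the table, 332 passed the filter and were tested with edgeR's quasi-likelihood test in a model with day and inducer. At a Benjamini-Hochberg adjusted p below 0.05, 76 (22.9% of those tested) differed between the inducers, of which PMD-Sen was the higher in 32 (9.64%) and DDR-Sen in 44 (13.3%). Differences below are on the log2 scale as PMD-Sen minus DDR-Sen, so a positive value means higher in PMD-Sen. Their size was mostly modest, with an absolute log2 difference of 0.25 to 1.86 and a median of 0.58, and 12 exceeded 1, with 6 in each direction. All 76 had the same sign at D6, D8 and D16. They were chosen by their difference over these same days, which favours a shared sign. In tests of single days, 0 miRNAs were called at all 3 days. The study's thresholds, an unadjusted p below 0.05 with an absolute log2 difference above 1, called 16 (4.82%), of which 12 were among the 76. In 11 miRNAs (3.31%) the 6 libraries of each inducer did not overlap in CPM, and 10 of these passed the test, 7 towards PMD-Sen and 3 towards DDR-Sen.

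**Figure D1:**
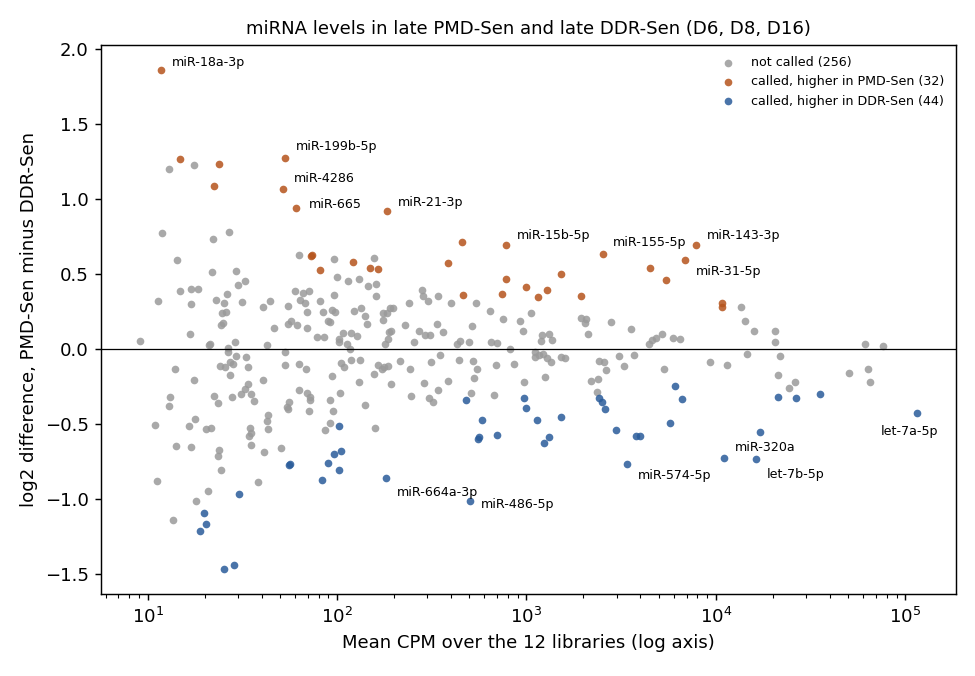
Each point is 1 of 332 tested miRNAs, with its mean CPM over the 12 late libraries on a log axis and its log2 difference (PMD-Sen minus DDR-Sen) on the vertical axis. The 32 orange points were called towards PMD-Sen and the 44 blue points towards DDR-Sen (50 and 23 with total counts), and abundant let-7 members lie below 0.

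How many miRNAs fell on each side depended on the scaling. Scaling to total counts moved the median of all tested miRNAs by 0.13, from -0.03 to 0.10, and gave 50 calls towards PMD-Sen and 23 towards DDR-Sen, 68.5% on the PMD-Sen side against 42.1% with TMM. DESeq2's size factors gave 38 and 38. When the counts of the 3 days were summed for each inducer and replicate number, leaving 2 libraries against 2, 8 miRNAs were called, 6 of them among the 76. All 8 were towards DDR-Sen and 0 towards PMD-Sen (edgeR, with 38 towards PMD-Sen and 54 towards DDR-Sen at an unadjusted p below 0.05), so that none of the calls towards PMD-Sen held with summed counts.

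The miRNAs higher in PMD-Sen included miR-15b-5p and miR-16-5p of the miR-15/16 group, which targets cyclins and BCL2. miR-15b-5p stood at 762 to 1237 CPM (median 964) in PMD-Sen and at 469 to 647 CPM (median 594) in DDR-Sen, beside 1024 and 1057 CPM in Ctrl. Every PMD-Sen library lay above every DDR-Sen library, and the log2 difference was 0.69 (SE 0.12, edgeR adjusted p = 0.000336). miR-16-5p, from the same seed family, ranged over 1343 to 2412 CPM (median 1736) in PMD-Sen and 1042 to 1382 CPM (median 1287) in DDR-Sen. PMD-Sen D6 replicate 2 was the 1 library of its group within the DDR-Sen range. The log2 difference was 0.50 (SE 0.14, adjusted p = 0.0104), with an adjusted p of 0.0527 without PMD-Sen D6 replicate 1, 0.0564 without D8 and 0.0562 without D16. Of the 4 tested members of the list of miR-15, miR-16, miR-195 and miR-497, 2 were called higher in PMD-Sen (9.64% over all tested miRNAs) and none in DDR-Sen. All 4 were positive under TMM, DESeq2 size factors and total counts alike. Their medians were 0.46, 0.49 and 0.59, against -0.03, 0.01 and 0.10 over all tested miRNAs. miR-424-5p carries the same seed and lies in the cluster of miR-424 and miR-503 on chromosome X, another set that restrains the cell cycle. There miR-503-5p was the 1 of 7 tested members called, beside 9.64% of all tested miRNAs called higher in PMD-Sen. It was at 1802 to 2699 CPM (median 2200.0) in PMD-Sen and 1400.0 to 2054 CPM (median 1598) in DDR-Sen (log2 difference 0.35, adjusted p = 0.0104, and 0.0861 without D6). Of the 7 members, 6 were positive (median 0.35). With total counts 3 of the 7 were called, all higher in PMD-Sen, beside 50 of all 332 tested miRNAs called in that direction.

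miR-31-5p, known for its action on cell motility and adhesion genes, ranged over 5511 to 10772 CPM (median 8752) in PMD-Sen and 3405 to 6720.4 CPM (median 5678) in DDR-Sen. It was higher in PMD-Sen at each of the 3 days, by 0.63 at D6, 0.55 at D8 and 0.59 at D16 on the log2 scale, while its level was lowest at D16 in both series, so that the ranges over all days overlapped. The log2 difference over the 3 days was 0.59 (SE 0.10, adjusted p = 0.000336). miR-7-5p, which lowers EGFR signalling, lay at 317 to 859 CPM (median 570.1) in PMD-Sen and 216 to 415 CPM (median 361) in DDR-Sen (log2 difference 0.71, SE 0.19, adjusted p = 0.00941, and 0.0959 without D8). Both groups were below the 1289.9 and 1824 CPM of the Ctrl libraries.

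The fibroblast and smooth muscle miRNAs miR-143-3p and miR-145-5p, made from 1 transcript, were higher in PMD-Sen. miR-143-3p was at 5647 to 17640.5 CPM (median 9435) in PMD-Sen and 4734 to 7028 CPM (median 5796) in DDR-Sen, and in PMD-Sen its 2 highest libraries were D8 replicate 1 at 10933 CPM and D16 replicate 1 at 17640.5 CPM. The groups overlapped through the lower PMD-Sen replicates of D6 and D8. In PMD-Sen its replicate 1 value lay above that of replicate 2 at each day. The log2 difference was 0.70 (SE 0.15, adjusted p = 0.00256), with 0.41 at D6, 0.59 at D8 and 1.08 at D16. With counts summed over days the edgeR adjusted p was 0.114. miR-145-5p was at 669.7 to 1230.0 CPM (median 916) in PMD-Sen and 552 to 736 CPM (median 613) in DDR-Sen (log2 difference 0.46, adjusted p = 0.0104, and 0.0942 without D16). miR-199a-5p, with 1 of its 2 copies in the antisense transcript of DNM3, did not overlap between the inducers, at 933 to 1615 CPM (median 1098) and 703 to 919 CPM (median 883). Its log2 difference of 0.41 (adjusted p = 0.0216) gave an adjusted p of 0.0543 without PMD-Sen D6 replicate 1, 0.0624 without PMD-Sen D16 replicate 1, 0.0642 without D8 and 0.177 without D16, where the differences were 0.42, 0.29, 0.48 and 0.24. miR-199b-5p had a log2 difference of 1.28 (adjusted p = 0.0126) that was largest at D16, at 2.40. It fell to 0.68 (adjusted p = 0.215) without D16 and to 0.82 (adjusted p = 0.0549) without PMD-Sen D16 replicate 1, and was 1.18 (adjusted p = 0.0626) without PMD-Sen D8 replicate 1 and 1.11 (adjusted p = 0.0556) without DDR-Sen D16 replicate 2. Over the whole fibroblast marker list, 4 of 8 tested members were called higher in PMD-Sen, beside 9.64% of all tested miRNAs, and none higher in DDR-Sen, with a median of 0.39. The others were not called. The 3p arms miR-199a-3p and miR-199b-3p, counted together at a mean of 4590 CPM, gave 0.06. miR-145-3p gave 0.37, miR-214-3p -0.14 and miR-152-3p -0.19.

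Inflammation-linked miRNAs went both ways. miR-155-5p, which is induced by NF-κB and dampens several of its regulators, was at 2289 to 3574 CPM (median 3168) in PMD-Sen and 817 to 3239.8 CPM (median 2255) in DDR-Sen, far below the 9433 and 10141 CPM of Ctrl (log2 difference 0.64, SE 0.15, adjusted p = 0.00414, and 0.0913 without D16). miR-21-3p, the lesser arm of the hairpin that yields the abundant miR-21-5p, was at 126.4 to 334.6 CPM (median 281) in PMD-Sen and 95.3 to 158 CPM (median 124) in DDR-Sen (log2 difference 0.92, SE 0.20, adjusted p = 0.00218). The main arm miR-21-5p gave a log2 difference of 0.03 and an adjusted p of 0.85. miR-146b-5p, a brake on interleukin and Toll-like receptor signalling, was higher in DDR-Sen, at 899.6 to 1864 CPM (median 1440.0) against 461 to 2169.5 CPM (median 879.8). PMD-Sen D16 replicate 1 held the highest of the 12 values, so the ranges overlapped. The log2 difference was -0.63 (SE 0.17, adjusted p = 0.0104), with -0.98 at D6 and -0.14 at D16, and its adjusted p was 0.113 without D6 and 0.117 without D8. With counts summed over days the difference was -0.24 (adjusted p = 0.706). miR-132-3p was the other member called higher in DDR-Sen (log2 difference -0.34, adjusted p = 0.044), a call that was lost in 9 of the 12 fits with 1 library left out, where its adjusted p reached 0.181, without each of the days and with total counts. Of 9 tested members of this list, 2 were called in each direction, beside 9.64% of all tested miRNAs called higher in PMD-Sen against 13.3% for DDR-Sen, and its median of -0.02 was positive with DESeq2 size factors (0.01) and total counts (0.10).

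The miR-17-92 cluster and its paralogs, which promote proliferation, were positive in all 11 tested members under TMM, DESeq2 size factors and total counts. Their medians were 0.31, 0.34 and 0.44, against -0.03, 0.01 and 0.10 over all tested miRNAs. The test called 3, all higher in PMD-Sen, a direction that held 9.64% of all tested miRNAs, and with total counts it called 5, beside 50 of all 332. miR-17-5p was at 138 to 242 CPM (median 189.8) in PMD-Sen and 79.5 to 218 CPM (median 129.7) in DDR-Sen, against 413 and 521 CPM in Ctrl (log2 difference 0.53, SE 0.15, adjusted p = 0.0158, 0.0508 without PMD-Sen D16 replicate 1, and 0.0543, 0.0676 and 0.107 without D6, D8 and D16). miR-92a-3p, the most abundant member, was at 9297 to 13857 CPM (median 12764) in PMD-Sen and 5256 to 12413 CPM (median 10587) in DDR-Sen (log2 difference 0.31, adjusted p = 0.0266). Its adjusted p was 0.0531, 0.0536 and 0.0503 without PMD-Sen D16 replicate 1, PMD-Sen D16 replicate 2 and DDR-Sen D16 replicate 2, and 0.06 and 0.195 without D8 and D16, the difference being 0.16 without D16. miR-18a-3p gave the largest fitted log2 difference of all called miRNAs, 1.86, from 1 to 28 counts a library in PMD-Sen and only 0 to 5 counts in DDR-Sen, where 5 of 6 libraries were at or under 3 counts, so its size is poorly fixed, and its adjusted p of 0.0124 was 0.0551 without D6. miR-106b-5p, of a paralogous cluster, gave 0.27 (adjusted p = 0.409).

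The imprinted 14q32 cluster, a long run of maternally expressed miRNAs, had 66 tested members. Of these, 6 were called towards PMD-Sen and 3 towards DDR-Sen, beside 9.64% and 13.3% of all tested miRNAs, or 11 and 1 with total counts, and the median was 0.06, or 0.19 with total counts. miR-379-5p was at 4821 to 6349 CPM (median 4983) in PMD-Sen and 2961 to 4760.2 CPM (median 3208) in DDR-Sen, without overlap (log2 difference 0.54, SE 0.10, adjusted p = 0.000573). miR-665 also did not overlap, at 60.3 to 99.2 CPM (median 83) and 23.8 to 56 CPM (median 40.3) (log2 difference 0.94, adjusted p = 0.00462, and 0.0856 without D6), and miR-370-3p had a log2 difference of 0.46 (adjusted p = 0.00256, and 0.0765 without D6). In the other direction, miR-432-5p was at 2264 to 4164 CPM (median 3043) in PMD-Sen and 3339 to 5008 CPM (median 4678) in DDR-Sen (log2 difference -0.58, SE 0.12, adjusted p = 0.00116, and 0.065 without D8).

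**Figure D2:**
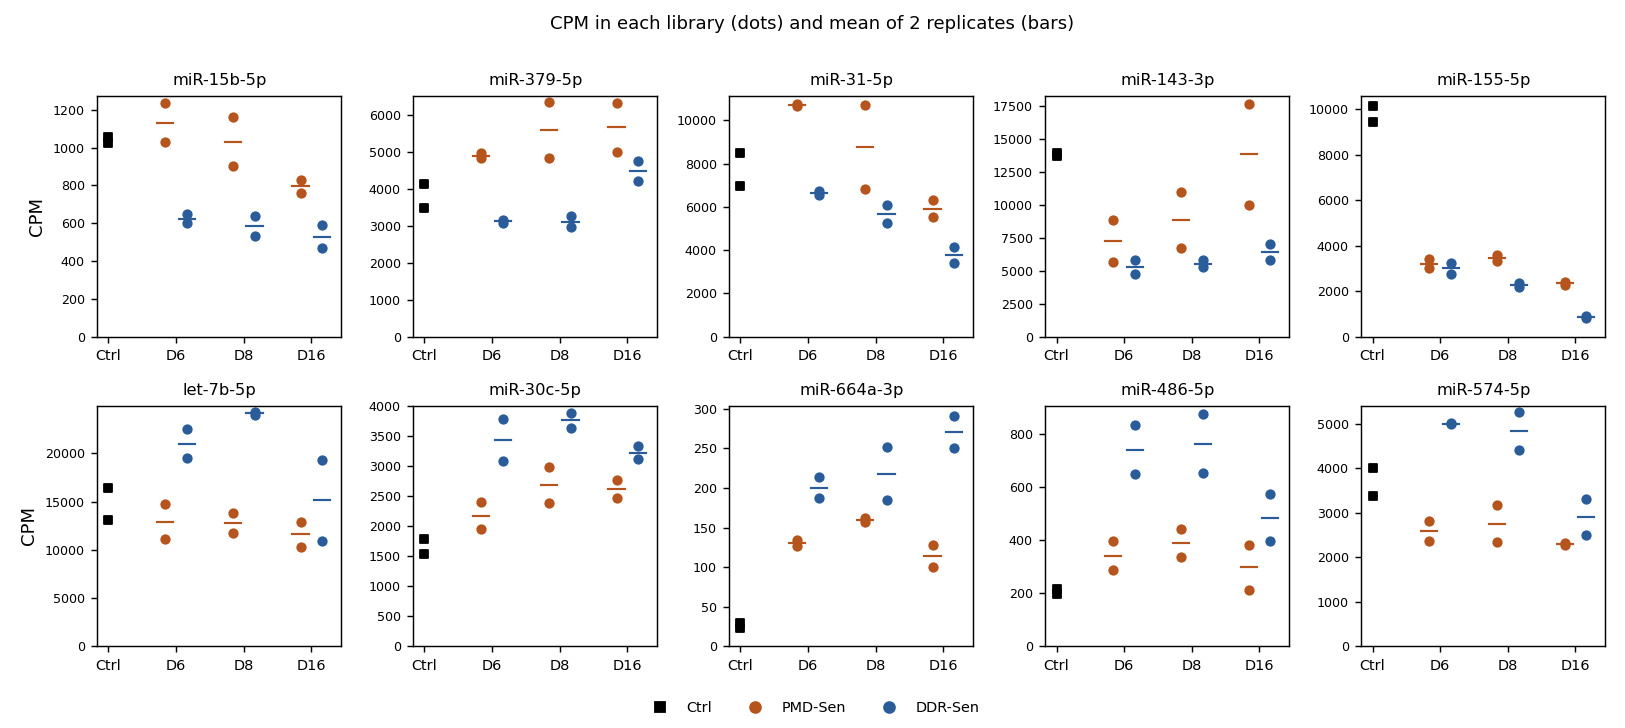
CPM of 10 miRNAs in each library, with 2 Ctrl libraries (black squares) and PMD-Sen (orange) and DDR-Sen (blue) libraries by day, bars marking the mean of 2 replicates and every vertical axis starting at 0. miR-15b-5p, miR-379-5p, miR-30c-5p and miR-664a-3p separated completely by inducer, while miR-155-5p overlapped at D6 and separated at D8 and D16.

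The let-7 family, whose targets include RAS, MYC, HMGA2 and cyclin genes, was an abundant group in which all called members were higher in DDR-Sen. Its summed level was 185358 to 269114 CPM in DDR-Sen and 167009 to 212343 CPM in PMD-Sen, beside 162951 to 222952 CPM in the Ctrl libraries. let-7b-5p was at 10907 to 24271 CPM (median 21018) in DDR-Sen and 10291 to 14753 CPM (median 12329) in PMD-Sen. DDR-Sen D16 replicate 2 was the 1 library of its group within the PMD-Sen range, and the log2 difference was -0.74 (SE 0.13, adjusted p = 0.000505). let-7d-5p was at 3316 to 5252 CPM (median 4951) in DDR-Sen and 2993 to 3512 CPM (median 3282) in PMD-Sen (log2 difference -0.58, adjusted p = 0.000505). let-7e-5p gave -0.55 (adjusted p = 0.00051). let-7a-5p, at 98206 to 152391 CPM (median 132112) in DDR-Sen and 90317 to 116319 CPM (median 99339) in PMD-Sen, gave -0.43 (adjusted p = 0.00325, and 0.0814 without D6). Its difference was -0.65 at D6 and -0.11 at D16, and the interaction with day did not pass the test. In all, 7 of 13 tested members were called higher in DDR-Sen, beside 13.3% of all tested miRNAs, and the median was -0.43. With total counts 4 were called, beside 23 of all 332, and the median was -0.29. The list mixes 5p and 3p arms, and let-7d-3p (-0.45) was among its calls. The 3p arms let-7a-3p (-0.51), let-7b-3p (-0.002) and let-7e-3p (0.19) were not called. Neither was let-7a-2-3p (0.59), which the list leaves out. The calls of let-7c-5p and let-7f-5p were lost in 1 and 6 of the 12 fits with 1 library left out. let-7g-5p, let-7i-5p and miR-98-5p carry the same seed and gave log2 differences of -0.11, 0.07 and -0.20, none of which passed the test.

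miR-664a-3p and miR-664a-5p, cut from a small nucleolar RNA gene, were low in proliferating cells and higher in both senescent series. miR-664a-3p was at 23 and 29.3 CPM in Ctrl, 100.6 to 163 CPM (median 132) in PMD-Sen and 185 to 291 CPM (median 232) in DDR-Sen. No DDR-Sen library fell into the PMD-Sen range, and the log2 difference was -0.86 (SE 0.16, adjusted p = 0.000704), largest at D16 with -1.32. The 5p arm gave -0.77 (adjusted p = 0.0203), with 0.0729 without PMD-Sen D6 replicate 1, 0.0601 without PMD-Sen D8 replicate 1, 0.0577 without DDR-Sen D8 replicate 1 and 0.0566 without DDR-Sen D16 replicate 2. Without D6, D8 and D16 it was 0.167, 0.0642 and 0.0633, and with total counts 0.0514. Because this hairpin lies within a small nucleolar RNA, reads of that RNA and of the miRNA cannot be told apart here. Of the 3 tested miRNAs that overlap small nucleolar or transfer RNA genes, these 2 arms of 1 hairpin were called higher in DDR-Sen, beside 13.3% of all tested miRNAs. With total counts 1 of the 3 was called, beside 23 of all 332. The median of the 3 was -0.77.

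miR-30c-5p, a member of a broadly expressed family that restrains fibrosis genes, was at 3083 to 3893 CPM (median 3487) in DDR-Sen and 1953 to 2986 CPM (median 2433) in PMD-Sen. The inducers did not overlap (log2 difference -0.54, SE 0.10, adjusted p = 0.000704). It was the 1 of 8 tested miR-30 members called, beside 13.3% of all tested miRNAs called higher in DDR-Sen. The median of the 8 was -0.08, and 0.04 with total counts. miR-486-5p, a miRNA of red blood cells and muscle, was at 396 to 875 CPM (median 652) in DDR-Sen and 214 to 443 CPM (median 362) in PMD-Sen. It had the largest difference towards DDR-Sen among miRNAs with at least 50 CPM, -1.01 (SE 0.15, adjusted p = 9.04e-05). Only the lowest DDR-Sen library, D16 replicate 2, lay within the PMD-Sen range. miR-451a, the defining miRNA of red blood cells, stood at 0 to 7.87 CPM in PMD-Sen and 0 to 4.00 CPM in DDR-Sen, at or near 0. miR-574-5p, at 2504 to 5256 CPM (median 4692) in DDR-Sen and 2280.4 to 3165 CPM (median 2347) in PMD-Sen, gave -0.77 (SE 0.12, adjusted p = 0.000102). miR-320a, which is made without Drosha, was at 8718 to 16112 CPM (median 15259.8) in DDR-Sen and 6291 to 10348 CPM (median 8639.7) in PMD-Sen (-0.73, SE 0.11, adjusted p = 9.04e-05). Its relative miR-320b gave -0.70 (adjusted p = 0.0114, 0.0862 without DDR-Sen D16 replicate 1, and 0.157 and 0.0588 without D8 and D16). miR-193a-5p (-0.59, adjusted p = 0.00176, and 0.0958 without D8) and miR-335-5p (-0.47, adjusted p = 0.00642, and 0.0619 and 0.0642 without D6 and D8), the latter from an intron of the imprinted gene MEST, were also higher in DDR-Sen.

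The p53-induced miRNAs did not pass the test in either direction. Of 6 tested members, 0 were called by edgeR or by DESeq2, beside 22.9% of all tested miRNAs called by edgeR. An unadjusted edgeR p was below 0.05 for 1 of the 6, beside 121 of all 332. All 6 were negative under each of the 3 scalings, with medians of -0.50 (TMM), -0.46 (DESeq2 size factors) and -0.37 (total counts). miR-34a-5p, the main member, was at 419 to 641 CPM (median 549) in PMD-Sen and 448 to 660.1 CPM (median 558) in DDR-Sen, ranges that covered nearly the same values (log2 difference -0.13, SE 0.13, adjusted p = 0.505). The miR-29 family, which represses collagen genes, had 0 of 4 called, with 1 at an unadjusted p below 0.05 and 1 called by DESeq2, by edgeR with DESeq2 size factors and by edgeR with total counts, and a median of -0.02 that turned to 0.02 with DESeq2 size factors and 0.12 with total counts. That member was miR-29a-3p, at 11573 to 20378 CPM (median 14959) in PMD-Sen and 10386 to 13719 CPM (median 11847) in DDR-Sen (log2 difference 0.28, adjusted p = 0.0596 in edgeR and 0.0346 in DESeq2). It was called in 7 of 25 alternatives, among them total counts (0.41, adjusted p = 0.00362), no filter (0.35, adjusted p = 0.00444), the replicate block (0.27, adjusted p = 0.0470) and the fits without PMD-Sen D6 replicate 2 (0.39, adjusted p = 0.00643) and without PMD-Sen D16 replicate 2 (0.32, adjusted p = 0.0425). The miR-181 family had 0 of 6 and the HOX cluster miRNAs 0 of 2 called, with 0 at an unadjusted p below 0.05 and 0 called by DESeq2 in each. These counts, and the 0 of 4 of the miR-29 family, stand beside 22.9% called over all tested miRNAs. miR-221-3p, which represses the cyclin-dependent kinase inhibitor p27, gave -0.32 (adjusted p = 0.0203), a call lost with total counts (-0.19, adjusted p = 0.104) and without PMD-Sen D6 replicate 2, DDR-Sen D6 replicate 2 or DDR-Sen D8 replicate 2 (adjusted p = 0.0923, 0.0501 and 0.0573). It was also lost without D6 (0.262) and D8 (0.161). Of the 4 tested members of the list of miR-221 and miR-222, 1 was called in each direction. Over all tested miRNAs 9.64% were called towards PMD-Sen and 13.3% towards DDR-Sen. The list's call towards PMD-Sen was miR-222-5p (1.08), lost in 7 of the 12 fits with 1 library left out. Its PMD-Sen libraries held 19 to 55.1 CPM (median 26.8), from 8 to 40 counts. Its DDR-Sen libraries held 5.77 to 20.2 CPM (median 15), from 2 to 11 counts, and 2 of them were at or under 3 counts. The more abundant arm of that hairpin, miR-222-3p, at a mean of 64986 CPM, had the opposite sign (-0.22) and was not called.

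The remaining lists are given by their counts, beside the 22.9% called over all tested miRNAs. In the miR-99/100 and miR-125 list 1 of 9 was called, miR-125a-5p higher in DDR-Sen (-0.33, adjusted p = 0.0104). That call was lost with total counts (0.0915), without DDR-Sen D8 replicate 2 (0.0599) and without D6 (0.0826) or D8 (0.159), and the list's median of -0.05 turned to 0.09 with total counts. In the miR-23/27/24 clusters 1 of 10 was called, miR-23b-3p higher in DDR-Sen (-0.25, adjusted p = 0.0377), a call lost in 9 of the 12 fits with 1 library left out, without each of the days, with total counts (-0.11, adjusted p = 0.327) and with DESeq2 size factors (adjusted p = 0.0602). The list median of -0.06 turned to 0.07 with total counts. miR-27b-3p of that list gave 0.14 (adjusted p = 0.344). In the miR-532/500/660 cluster 1 of 9 was called, miR-500a-3p higher in PMD-Sen (0.54, adjusted p = 0.0175, with 0.0552 without PMD-Sen D8 replicate 2, 0.0547 without DDR-Sen D6 replicate 2 and 0.0861, 0.102 and 0.0591 without D6, D8 and D16). Its list median was -0.12, or 0.01 with total counts. miR-193a-5p was the 1 of 6 called in the clusters of miR-193 and miR-365 (median -0.40). Of the most abundant members of the lists without a call, miR-10a-5p, which lies in a HOX gene cluster, gave -0.16 (adjusted p = 0.183), miR-181a-5p 0.07 (adjusted p = 0.639) and miR-194-5p -0.36 (adjusted p = 0.293).

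Outside the lists, miR-4286 was at 56.2 to 93.3 CPM (median 67.8) in PMD-Sen and 7.69 to 58.9 CPM (median 34.8) in DDR-Sen, and was among the largest differences towards PMD-Sen (1.07, adjusted p = 0.0104, and 0.162 without D16). miR-625-3p did not overlap between the inducers, at 73 to 102 CPM (median 93.1) and 30.8 to 71.9 CPM (median 61.6). Its difference of 0.63 (adjusted p = 0.0287) gave an adjusted p of 0.0534 without PMD-Sen D6 replicate 1, 0.0789 without PMD-Sen D16 replicate 1 and 0.0699 without DDR-Sen D16 replicate 2, and 0.0585, 0.0891 and 0.195 without D6, D8 and D16. On the DDR-Sen side, miR-2110 gave -0.87 (adjusted p = 0.00381) and miR-1306-5p -0.76 (adjusted p = 0.00741, and 0.0951 and 0.117 without D6 and D8). Further calls were miR-589-5p (0.62) and, from the 14q32 list, miR-377-5p (0.58) towards PMD-Sen and miR-3679-5p (-0.78), miR-1249-3p (-0.81) and miR-92b-5p (-0.68) towards DDR-Sen. Each of these 5 lost its call in at least 1 fit with 1 library left out. The endothelial miR-126-3p gave -0.12, the epithelial miR-200c-3p -0.81 and the liver miR-122-5p -0.89, and none of these 3 passed the test (adjusted p = 0.676, 0.0951 and 0.075). miR-122-5p was called higher in DDR-Sen without D8 (-1.22, adjusted p = 0.0288), without PMD-Sen D8 replicate 2 (-1.23, adjusted p = 0.0166) and without DDR-Sen D8 replicate 1 (-1.16, adjusted p = 0.0112).

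**Figure D3:**
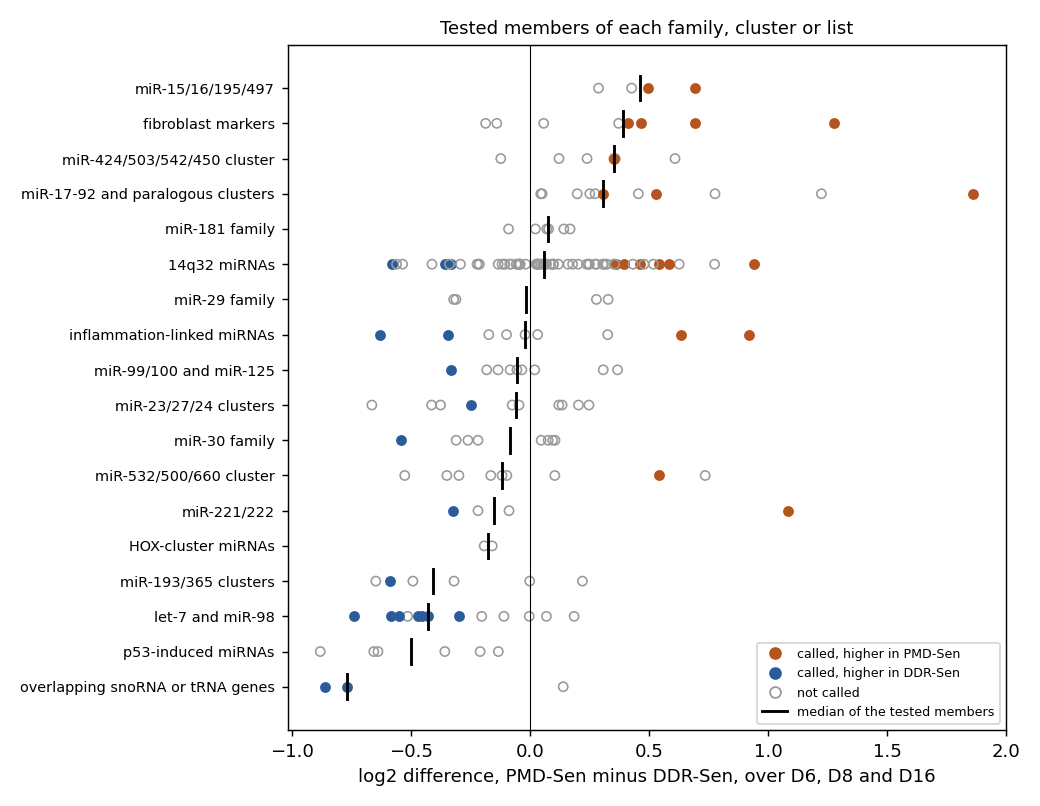
Each circle is a tested member of a family, cluster or list, placed by its log2 difference (PMD-Sen minus DDR-Sen) over D6, D8 and D16, with filled circles for called members and black bars for medians. The miR-15/16, miR-17-92 and fibroblast lists lie wholly or mostly to the right of 0 and the let-7 list mostly to the left, while the 66 members of 14q32 spread over both sides.

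Each late series was also set against Ctrl, in a fit of the 12 late libraries with Ctrl and RS. Late PMD-Sen differed from Ctrl in 83 of 340 tested miRNAs (24.4%), with 41 up and 42 down, and late DDR-Sen in 87 (25.6%), with 37 up and 50 down. Both comparisons use the same 2 Ctrl libraries, and they share their senescent libraries with the comparison of inducers, so the values are given side by side without a test of their likeness. Some miRNAs passed the test against Ctrl in DDR-Sen, where they were lower, and not in PMD-Sen. miR-15b-5p was -0.09 in PMD-Sen (adjusted p = 0.705) and -0.85 in DDR-Sen (adjusted p = 0.00119) as log2 differences from Ctrl. miR-31-5p was 0.09 (adjusted p = 0.73) and -0.57 (adjusted p = 0.0259). miR-143-3p was -0.52 (adjusted p = 0.238) and -1.27 (adjusted p = 0.00508), and all PMD-Sen libraries other than D16 replicate 1 lay below both Ctrl libraries (13711 and 13938 CPM).

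Others were lower than Ctrl in both series, with DDR-Sen the lower of the 2 series. For miR-155-5p the log2 differences from Ctrl were -1.72 (PMD-Sen) and -2.44 (DDR-Sen). They were -1.29 and -1.88 for miR-17-5p, -1.45 and -2.21 for miR-7-5p, and -0.79 and -1.35 for miR-16-5p, all past the threshold. Both series lay above Ctrl, past the threshold, for miR-664a-3p, at 2.31 and 3.09, and for miR-30c-5p, at 0.58 and 1.06. For miR-486-5p the difference from Ctrl passed the test in DDR-Sen (1.65, adjusted p = 0.00103) and not in PMD-Sen (0.71, adjusted p = 0.112). miR-320a was lower than Ctrl in PMD-Sen (-1.01, adjusted p = 0.0047), with -0.35 in DDR-Sen (adjusted p = 0.294), and miR-574-5p was -0.54 in PMD-Sen (adjusted p = 0.025) and 0.16 in DDR-Sen (adjusted p = 0.518). let-7b-5p passed the test in neither, at -0.25 and 0.42. With 1 of the 2 Ctrl libraries left out, the calls fell to 34 (without replicate 1) and 21 (without replicate 2) for PMD-Sen and to 55 and 38 for DDR-Sen.

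**Figure D4:**
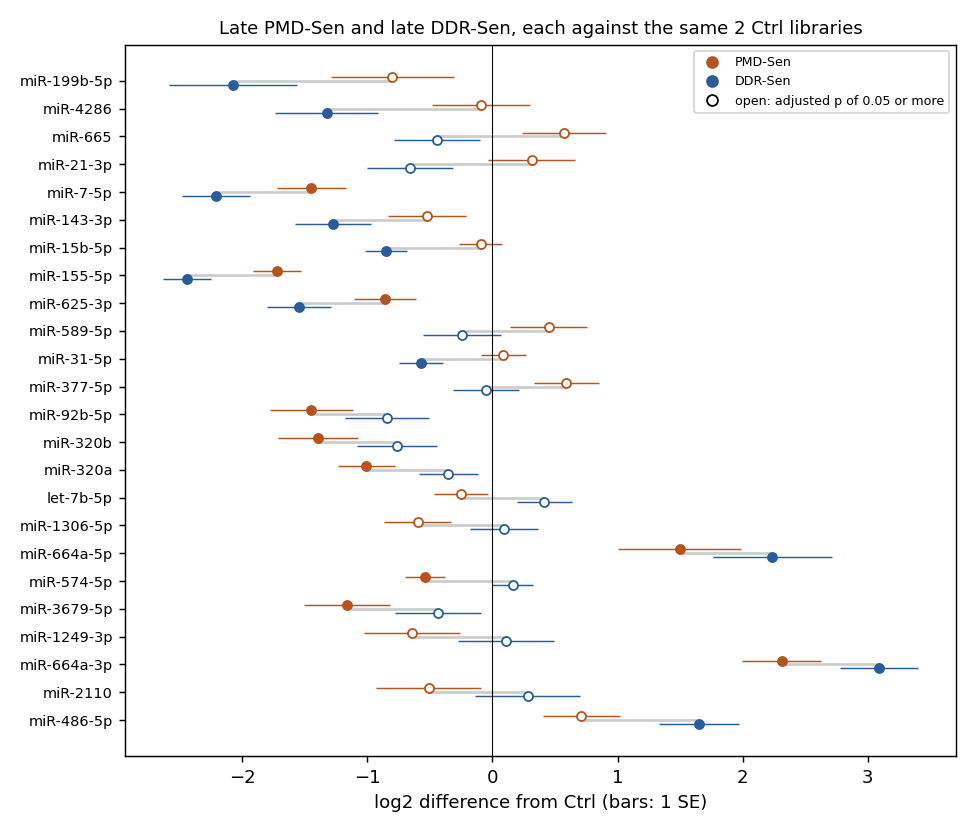
Log2 difference from Ctrl, with 1 SE, for late PMD-Sen (orange) and late DDR-Sen (blue) in the 24 miRNAs with the largest called differences at 50 CPM or more, 12 in each direction, ordered by the difference between inducers. Filled symbols passed the test against Ctrl. miR-664a-3p lies far to the right in both series, and miR-155-5p and miR-7-5p far to the left.

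Single days gave fewer calls, each from 2 libraries against 2 within a model of all 12. At D6 18 miRNAs (5.42%) were called, 5 higher in PMD-Sen and 13 in DDR-Sen, at D8 16 (4.82%), 2 and 14, and at D16 11 (3.31%), 8 and 3. DESeq2 called 29 at D8 and edgeR with the replicate block 33, and the study's thresholds with edgeR gave 20 at D16. miR-320a, miR-486-5p, miR-574-5p, miR-193a-5p, let-7a-5p, let-7b-5p, let-7d-5p and let-7e-5p were called higher in DDR-Sen at both D6 and D8, and miR-15b-5p and miR-379-5p higher in PMD-Sen at both. At D16 the calls higher in PMD-Sen were miR-143-3p, miR-145-5p, miR-155-5p, miR-199a-5p, miR-199b-5p, miR-92a-3p, miR-106b-3p and miR-4286, and those higher in DDR-Sen were miR-664a-3p, miR-374b-5p and miR-337-3p. These lists of a day were read off after the values were seen. Each depended on single libraries, whose loss left 1 and 6 calls at D6 without PMD-Sen replicates 1 and 2 and 0 without either DDR-Sen replicate. At D8 it left 2 and 5 without PMD-Sen replicates 1 and 2 and 1 and 6 without DDR-Sen replicates 1 and 2. At D16 the count was 1 without PMD-Sen replicate 1, the deep library, 19 without PMD-Sen replicate 2, 3 without DDR-Sen replicate 1 and 2 without DDR-Sen replicate 2, with the remaining single library taken to vary like the others.

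Whether the inducer difference changed over D6 to D16 was tested with interaction terms. It passed in 1 miRNA, miR-155-5p (0.301%, edgeR adjusted p = 0.00819), and 16 had an unadjusted p below 0.05. miR-155-5p stood at 3013 and 3399.6 CPM in the D6 libraries of PMD-Sen, 3574 and 3324 CPM in those of D8, and 2289 and 2408 CPM in those of D16. Its DDR-Sen libraries held 2766 and 3239.8 CPM on D6, 2159 and 2350.1 CPM on D8, and 909.6 and 817 CPM on D16. The level thus fell further in DDR-Sen, and the log2 difference was 0.02 at D6, 0.53 at D8 and 1.39 at D16. The adjusted p was 0.0948 without PMD-Sen D6 replicate 1, 0.136 without DDR-Sen D6 replicate 2 and 0.161 without DDR-Sen D16 replicate 2.

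The mean inducer difference over D6, D8 and D16 was then compared with that over D1 to D4, in a fit of 28 libraries. The late and early days differed in 4 of 346 tested miRNAs (1.16%), and 80 had an unadjusted p below 0.05. The count depended on the fit, with 27 calls by DESeq2, 24 with no filter, 25 with D0 among the early days and 45 with the replicate number as a block. miR-143-3p turned from -1.10 at D1 (lower in PMD-Sen) to 1.10 at D16, a late minus early change of 1.06 (SE 0.22, adjusted p = 0.0224). miR-335-3p went from -2.37 at D1 to 0.52 at D8 and -0.13 at D16 (change 1.12, adjusted p = 0.0345). miR-34a-5p was lower in PMD-Sen at D1 to D4, with log2 differences of -0.98 to -0.68, and stood at 0.17 at D16 (change 0.77, adjusted p = 0.0461). miR-432-5p went the other way, from 0.71 at D1 to -0.55 at D16 (change -0.66, adjusted p = 0.0461). These calls were fragile: with each of the 12 late libraries left out in turn, all 4 kept their sign, while miR-143-3p and miR-335-3p passed in 6 of the 12 fits and miR-432-5p and miR-34a-5p in 4, and the count of calls ranged from 0 to 28. It was 0 without PMD-Sen D6, D8 or D16 replicate 1 or without DDR-Sen D6 or D8 replicate 2, and 1 without DDR-Sen D16 replicate 1. It was 28, 10 and 21 without PMD-Sen D6, D8 and D16 replicate 2.

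The inducers were also compared over the early days. Over D1 to D4 the inducers differed in 62 of 346 miRNAs (17.9%). Of the 76 late calls, 55 had the same sign over D1 to D4, beside 202 of the 329 miRNAs tested in both (61.4%), and 23 were called there in the same direction. miR-30c-5p was -1.01 over D1 to D4 (adjusted p = 1.84e-06), miR-486-5p -1.13 (adjusted p = 1.63e-05), miR-146b-5p -1.19 (adjusted p = 1.84e-06) and miR-335-5p -0.99 (adjusted p = 2.35e-06), each beside its late value above. On the PMD-Sen side, miR-31-5p was 0.51 (adjusted p = 0.000497) and miR-15b-5p 0.42 (adjusted p = 0.0278). miR-664a-3p, by contrast, was -0.09 early (adjusted p = 0.782), although its late minus early change of -0.67 did not pass the test (adjusted p = 0.115).

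**Figure D5:**
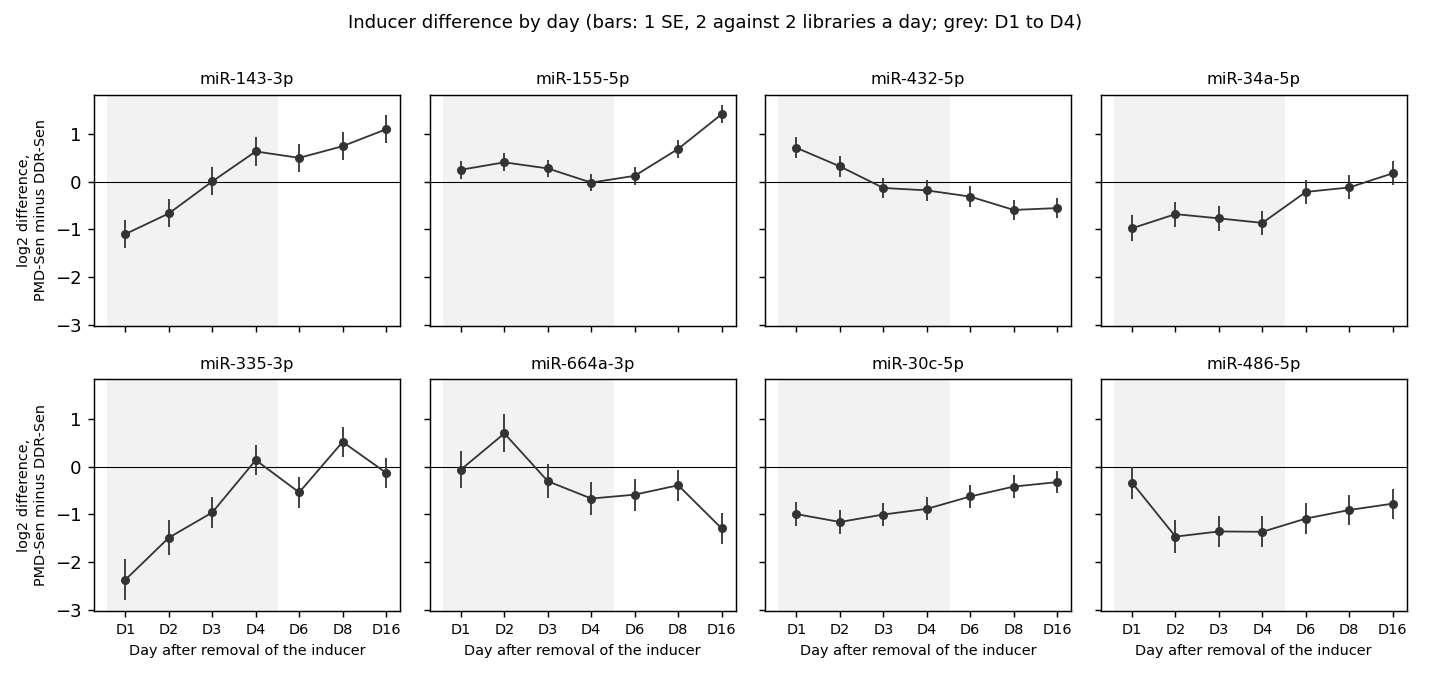
Log2 difference between inducers (PMD-Sen minus DDR-Sen) with 1 SE at D1 to D16 for 8 miRNAs, from the fit of 28 libraries, with 2 libraries of each inducer a day and grey shading over D1 to D4. miR-143-3p crosses from -1.10 to 1.10, miR-155-5p rises after D6, and miR-30c-5p and miR-486-5p stay below 0.

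Of the 332 tested miRNAs, 300 matched an entry in the RefSeq sequences used here, among them 27 of the 32 called higher in PMD-Sen and 42 of the 44 called higher in DDR-Sen. Within those called miRNAs with a sequence, 3 seeds (bases 2 to 8) occurred more than once. The seed GAGGUAG joined the 6 called let-7 members, and 8 of its 9 carriers with a sequence were negative. The seed AGCAGCA joined miR-15b-5p and miR-16-5p, and all 4 carriers with a sequence were positive. The third seed, AUUGCAC, was carried by miR-92a-3p, higher in PMD-Sen (0.31), and by miR-92b-3p, higher in DDR-Sen (-0.33), so that 2 miRNAs with 1 seed had opposite signs. The call of miR-92b-3p was lost in 10 of the 12 fits with 1 library left out and in 21 of 25 alternatives in all, with an adjusted p of up to 0.335 and no change of sign.
miR-92a-3p: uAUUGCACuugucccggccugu
miR-92b-3p: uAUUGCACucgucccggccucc
Both arms were tested for 82 hairpins, and both were called for 5. In 4 of these (MIR574, MIR664A, MIR92B and MIRLET7D) the arms went the same way, and in MIR423 the 3p arm was higher in PMD-Sen (0.28) and the 5p arm higher in DDR-Sen (-0.49). The 3p call was lost in 3 of the 12 fits with 1 library left out, and the 5p call in 0. miR-92b-3p and the MIR423 arms were singled out after their values were seen. Where 1 arm was called, in 23 hairpins, the other had the same sign in 15, beside 50 of all 82 hairpins with both arms tested. The GC content of the mature sequence had a median of 52.0% in miRNAs higher in PMD-Sen, 52.2% in those higher in DDR-Sen and 50% over all tested miRNAs with a sequence. In the 59 miRNAs with at least 60% GC the median log2 difference was -0.20, with 4 called higher in PMD-Sen and 11 in DDR-Sen, and in the 47 below 40% GC it was 0.05, with 2 and 5. Over all 300 miRNAs with a sequence, 27 were called higher in PMD-Sen and 42 in DDR-Sen. These values are with TMM scaling, on which the balance of calls depended. The part of GC content in the differences was not tested.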

How the data were processed

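Small RNA libraries were made from 100 ng of total RNA with the NEXTFLEX kit and 17 PCR cycles. The authors ran the exceRpt pipeline 4.6.2 against GRCh38 and deposited expected counts per mature miRNA, in which a read that fits several miRNAs is divided among them. These were rounded to whole numbers (1003 of 54288 values were not whole), and 0 columns lacked a sample. The late comparison used edgeR 4.0.16 in R 4.3.3 on 12 libraries (6 against 6), with filterByExpr, TMM scaling, day and inducer as terms, quasi-likelihood tests and p-values adjusted by Benjamini-Hochberg across the 332 miRNAs tested, a call being an adjusted p below 0.05. Further fits gave single days, their interaction, Ctrl (with RS, 16 libraries) and D1 to D4 (28 libraries). CPM were taken with TMM totals over 16 libraries. Totals of 323230 to 1933442 counts set the precision, and since PCR copies of 1 molecule are not independent, floors of 3 counts cover counting error only.

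Named miRNAs were those called with a mean of at least 50 CPM, up to 12 in each direction by size of the difference, up to 4 called members per list by p, the 2 most abundant members of a list without calls, the miRNAs the study names for late senescence, and up to 5 for the interaction and the late minus early test. The members, families and marker lists were chosen with earlier results of these data known. Alternatives were DESeq2 1.42.0, limma 3.58.1 with a correlation within cultures, other scalings and filters, a replicate block, all 36 libraries, summed or thinned counts, and leaving out each day or library. The scripts were tested on simulated data. The main fits did not pair libraries by replicate number, which entered only the block, summed-count and within-culture alternatives.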

Additional observations from a re-analysis of the deposited data

Results flagged for a closer look

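Within the groups of 6 libraries, 124 sets of values were examined for a library far from the other 5, and 4 had one, where chance gives about 1 in 20. The total of PMD-Sen D16 replicate 1, 1933442 counts, stood above the other PMD-Sen libraries. miR-377-5p was at 102 CPM in PMD-Sen D8 replicate 1, below the other 5 libraries of its group. let-7b-5p was at 10907 CPM in DDR-Sen D16 replicate 2, where the next lowest DDR-Sen library was at 19366 CPM. miR-3679-5p was at 36.5 CPM in the same library, again the lowest of its group.

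The inducer difference changed between D1 to D4 and D6 to D16, by a test of that change itself, in 4 miRNAs. The changes in log2 difference were 1.06 for miR-143-3p, 1.12 for miR-335-3p, 0.77 for miR-34a-5p and -0.66 for miR-432-5p. Within the late days the difference of miR-155-5p changed by the interaction test and was 1.39 at D16.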

How the results depend on the processing

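All 76 called miRNAs kept their direction in every alternative that gave a value. There were 25 such alternatives each, and 21 to 24 for the 4 that the filter removed in others. The alternatives reuse the libraries by which the 76 were chosen, so a kept direction adds little. Of the 76, 38 kept their call in every fit with 1 library left out. In every alternative 6 kept it (miR-320a, miR-574-5p, let-7b-5p, let-7d-5p, let-7e-5p and miR-664a-3p). The 76 late calls became 14 (8 higher in PMD-Sen, 6 in DDR-Sen) with DESeq2 at the study's thresholds, 16 (8 and 8) with edgeR at those thresholds, 44 (21 and 23) with all 36 libraries, and 8 (0 and 8) with counts summed over days, where edgeR's unadjusted p was below 0.05 for 38 and 54. Total counts gave 50 and 23. The calls were 37 (15 and 22) without D6, 33 (16 and 17) without D8 and 58 (18 and 40) without D16. With 1 library left out they ranged from 58 to 77. With the replicate block they were 79, of which 75 were among the 76, and deviations of same-numbered libraries correlated at -0.166 to 0.249 over 15 pairs of conditions, 7 of them above 0.1, including all 3 pairs within PMD-Sen (0.159 to 0.249). Since not every pair was above 0.1, the main fits did not use the number to pair the libraries. Whether PMD-Sen libraries of 1 number share a culture was not tested. If they do, the main p-values are too small. A correlation within cultures, estimated at -0.0067 over both series together, kept 73. With an estimate near 0 that fit treats the libraries as almost independent. It therefore cannot show how calls fare where days of 1 culture depend on each other. Summed counts kept 6 of the 76. At D8 DESeq2 called 29 and the replicate block 33, and at D16 the study's thresholds gave 20. With 1 library left out the calls were 0 to 6 at D6, 1 to 6 at D8 and 1 to 19 at D16, the lone library being assumed to vary like the others. The interaction gave 2 with DESeq2 and 0 to 1 with 1 library left out. Late minus early gave 27 with DESeq2, 24 with no filter, 45 with the replicate block, 25 with D0 among the early days and 0 to 28 with 1 library left out. Against Ctrl, the calls were 21 to 34 for PMD-Sen and 38 to 55 for DDR-Sen with 1 Ctrl library left out. Signs turned for miRNAs that were not called: miR-181b-5p (0.0448 with total counts, 0.0170 without D8, -0.109 to 0.0260 with 1 library left out), miR-335-3p (0.00835 with total counts, 0.104 without D6, -0.195 to 0.0314 with 1 library left out), miR-126-3p (0.00692 summed, 0.0298 without D6) and miR-181a-5p (-0.00605 without D6). Calls were gained by miR-29a-3p, miR-122-5p and, without D16, miR-29b-1-5p (-0.57, adjusted p = 0.0175). The cause of these changes was not tested. Depth limits the low miRNAs: 3 counts are 1.54 to 10.2 CPM, and miR-18a-3p had 0 to 5 counts a library in DDR-Sen.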
